A study of Mus musculus with 8 samples.

Results

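The Ifit genes (interferon-induced proteins with tetratricopeptide repeats) were followed in primary cultured mouse microglia, the resident macrophages of the brain, with and without immunoglobulin G (IgG). The members were the rows of the count table whose GENCODE mouse symbol is Ifit1, Ifit2, Ifit3, Ifit3b, Ifit1bl1 or Ifit1bl2, and all 6 were found among its 55385 genes. The 4 control cultures and the 4 IgG cultures were wild-type, came from the neocortex and hippocampus of newborn mice, and were at day in vitro (DIV) 15 when 10 µg/ml IgG was added for 24 h to the second group. The labels call the controls untreated, whereas the study's methods describe PBS. Cells of several brains were pooled in each preparation, so that a library stands for a culture and not for a single mouse. Libraries of equal replicate number, 1 control and 1 IgG, carry a common date in the labels, which do not say what it dates, and form 4 pairs.

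Ifit proteins are effectors of the type I interferon (IFN-I) response. Interferon binds the receptor Ifnar1/Ifnar2, and the kinases Jak1 and Tyk2 then activate the transcription factor complex ISGF3, which reads interferon-stimulated response elements (ISRE) in the promoters of its target genes. Ifit1 binds viral mRNA whose cap lacks 2′-O methylation and blocks its translation. Ifit2 also restrains viral replication, including in the brain, and Ifit3 proteins work in complexes with other family members. Less is known of Ifit1bl1 and Ifit1bl2, which are named for their likeness to Ifit1.

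The 6 genes lie side by side on chromosome 19 (GRCm38, GENCODE M21), from 34550694 to 34650009, a span of 99.3 kb that holds Ifit2, Ifit3, Ifit1bl1, Ifit3b, Ifit1bl2 and Ifit1 in this order. Ifit2 (ENSMUSG00000045932, chr19:34550694-34576419), Ifit3 (ENSMUSG00000074896, chr19:34583531-34588731), Ifit3b (ENSMUSG00000062488, chr19:34607970-34613401) and Ifit1 (ENSMUSG00000034459, chr19:34640871-34650009) are on the plus strand. Ifit1bl1 (ENSMUSG00000079339, chr19:34592891-34601956) and Ifit1bl2 (ENSMUSG00000067297, chr19:34617049-34640743) are on the minus strand. Each is annotated as protein-coding.

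**Figure D1:**
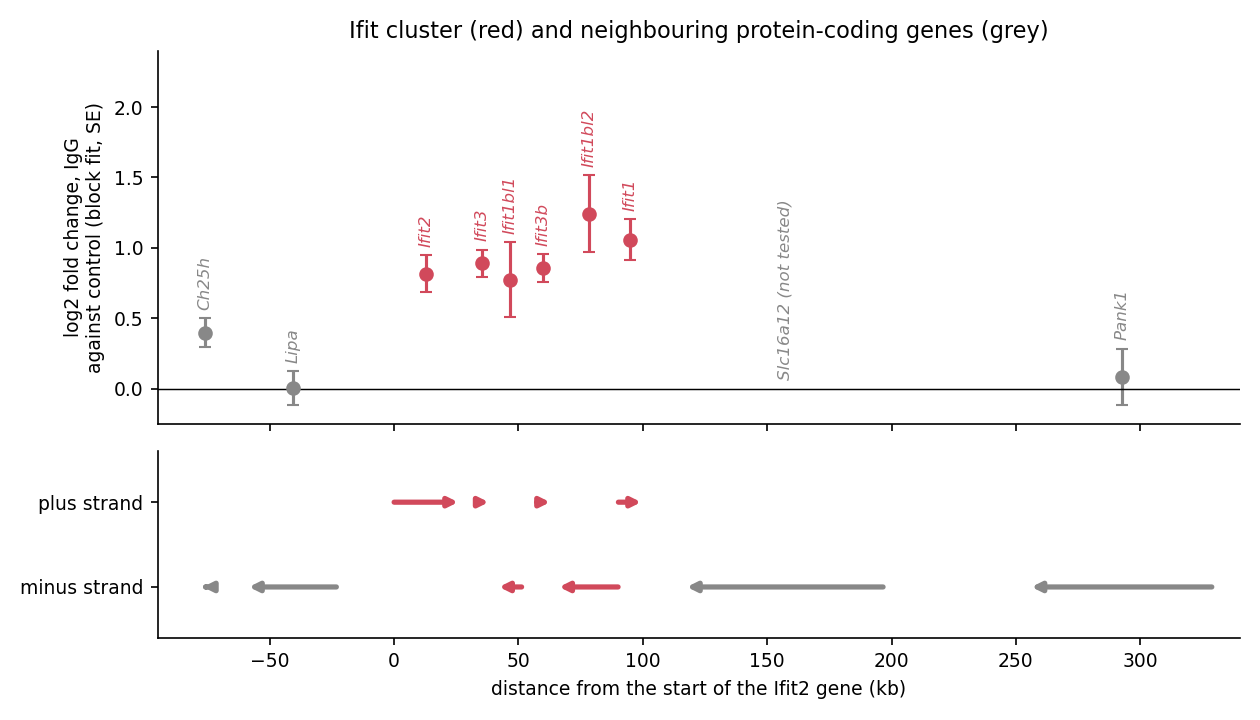
The lower panel shows the Ifit genes (red) and their nearest protein-coding neighbours (grey) as arrows along the gene's direction, by distance from the start of Ifit2 in kb, and the upper panel shows the log2 fold change of IgG against control with its SE from the fit with the replicate block (n = 4 pairs). The 6 Ifit genes lie between 0.77 and 1.24, and the neighbours that could be tested lie between 0.00 and 0.40.

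The promoters are shown first because they set members apart that otherwise lie in 1 cluster. RefSeq windows (GRCm38.p6) from 250 bases before to 50 bases after each gene start were searched for the ISRE core GAAANNGAAA on both strands. Of 27025 genes with such a window, 3.99% held at least 1 match and 0.266% held 2 or more. Ifit1, Ifit3, Ifit3b and Ifit1bl2 each had a window with 2 matches. Each of the 2 windows of Ifit1bl1 had 1 match. The 2 windows of Ifit2 had no match with these letters. The stretches around the matches, read 5′ to 3′ along the gene, are given with the match in capitals. Where the match lies on the other strand, its reverse complement is what the capitals show.
Ifit1, chr19:34640770-34640828, plus strand: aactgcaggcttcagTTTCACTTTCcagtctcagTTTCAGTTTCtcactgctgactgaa
Ifit1bl2, chr19:34640770-34640828, minus strand: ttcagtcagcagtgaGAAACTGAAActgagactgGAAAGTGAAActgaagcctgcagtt
Ifit3, chr19:34583358-34583431, plus strand: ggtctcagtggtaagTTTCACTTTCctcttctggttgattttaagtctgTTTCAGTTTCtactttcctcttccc
Ifit3b, chr19:34607754-34607827, plus strand: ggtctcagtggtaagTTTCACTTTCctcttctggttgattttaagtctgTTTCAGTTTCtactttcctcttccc
Ifit1bl1, chr19:34599426-34599465, minus strand: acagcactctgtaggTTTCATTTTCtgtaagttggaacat
Ifit1bl1, chr19:34602048-34602087, minus strand: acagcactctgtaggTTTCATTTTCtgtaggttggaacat

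The stretches of Ifit1 and Ifit1bl2 are the same piece of DNA read from opposite strands. These genes are transcribed away from each other from starts that lie 146 bases apart, and both of their matches are shared. The stretches of Ifit3 and Ifit3b are identical over all 74 bases. The TATA box, searched as TATAAA on the strand of the gene, occurred in windows of Ifit1bl1 and Ifit1bl2 and in none of the other members, and in 9.77% of all genes with a window. In Ifit1bl2 it lay in a window without ISRE matches, not in the window shared with Ifit1. Each window of Ifit1bl1 held both motifs. A match describes the letters and does not show that a factor binds there.

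**Figure D2:**
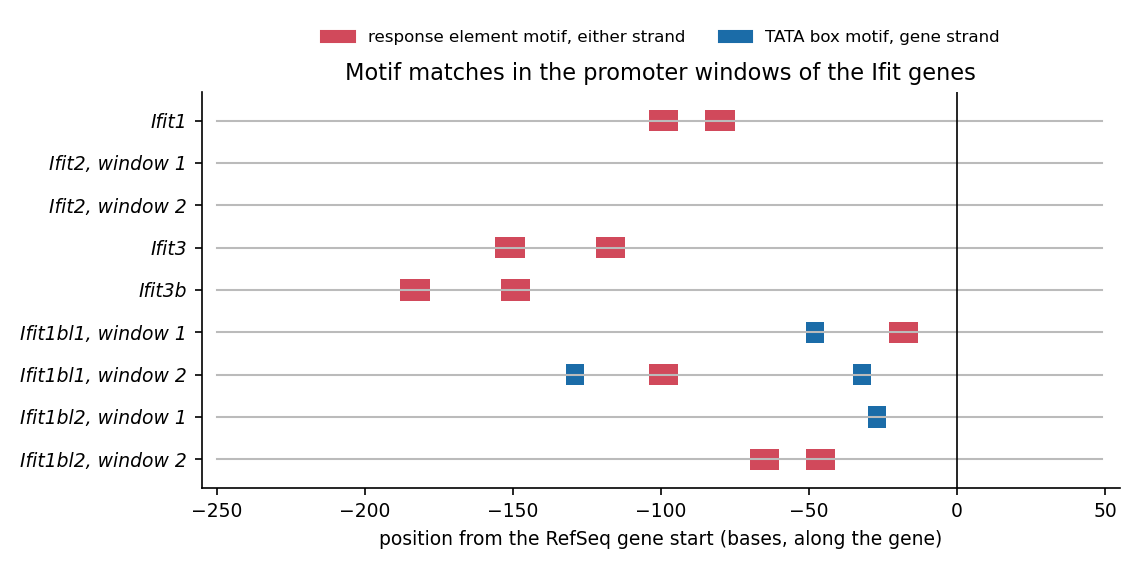
Each line is 1 RefSeq promoter window of an Ifit gene, drawn along the gene from 250 bases before to 50 bases after the start (vertical line), with matches to the ISRE core in red and to the TATA box in blue. The paired ISRE matches lie 104 to 76 bases before the start in Ifit1, 156 to 113 in Ifit3, 188 to 145 in Ifit3b and 70 to 42 in the second window of Ifit1bl2, and both windows of Ifit2 are empty.

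Ifit3 and Ifit3b are near copies, which matters for counts of single genes. Their coding sequences were identical at 1201 of 1212 aligned bases (99.1%), with an identical run of 329 bases. Coding bases 229 to 288 hold 4 of the 11 differences, shown in capitals.
Ifit3: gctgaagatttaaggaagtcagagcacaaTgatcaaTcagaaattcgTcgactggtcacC
Ifit3b: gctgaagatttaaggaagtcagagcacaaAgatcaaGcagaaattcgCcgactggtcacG

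Ifit1bl1 and Ifit1bl2 shared 87.5% of aligned coding bases with each other and 73.6% and 73.8% with Ifit1, and the remaining pairs of members shared 50.5% to 56.1%. Of all 100-base words in the annotated transcripts, 31.7% of those of Ifit3 also occurred in another member, as did 27.4% for Ifit3b, 3.29% for Ifit1, 2.91% for Ifit1bl2 and 0.51% for Ifit1bl1. Ifit2 shared none, and no word of a member occurred in a gene outside the family. The sources used here do not say how reads with several alignments were treated, so the split between Ifit3 and Ifit3b is uncertain, and the levels and shares of each as a single gene carry this limit. The change of their sum is given beside the changes of each.

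All 6 members were expressed in the control microglia, in every culture. On a scale per exon length (RPKM, computed here from the counts), the order was Ifit3, Ifit2, Ifit3b, Ifit1, Ifit1bl1 and Ifit1bl2 in each of the 8 libraries, so that no neighbours in it changed places. The control means were 74.8 ± 29.3 RPKM for Ifit3, 39.7 ± 17.03 for Ifit2, 24.2 ± 9.26 for Ifit3b, 14.3 ± 5.85 for Ifit1, 1.27 ± 0.447 for Ifit1bl1 and 0.375 ± 0.135 for Ifit1bl2 (SD, n = 4). Ifit1 and Ifit1bl2, whose promoters share both ISRE matches, held places 4 and 6 in this order.

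The following levels are CPM (library-size-scaled counts, after TMM), in replicates 1 to 4. Ifit1 was at 56.6, 34.5, 41.3 and 19.2 CPM in the controls and at 135, 56.5, 116 and 32.2 with IgG. It was higher with IgG in each pair, but the groups overlapped: the IgG library of pair 4 was below 3 of the 4 controls.

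Ifit2, the member with the most counts in every library but IgG 4, where Ifit3 had more, was at 230, 142, 180 and 71.3 CPM in the controls and at 470, 220, 399 and 96.3 with IgG. Its levels followed the same order of cultures as Ifit1, and IgG library 4 was again below 3 controls.

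Ifit3 was at 187, 116, 151 and 67.7 CPM in the controls and at 377, 188, 314 and 117 with IgG. Ifit3b was at 69.9, 46.2, 52.3 and 25.02 CPM in the controls and at 129, 74.3, 112 and 42.1 with IgG. For both of these genes 3 of the 4 IgG libraries were above all controls, and the fourth was below 2 controls for Ifit3 and below 3 for Ifit3b.

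The weakly expressed members rested on fewer counts. Ifit1bl1 was at 4.15, 2.75, 2.89 and 1.68 CPM in the controls and at 7.21, 2.78, 9.33 and 2.23 with IgG, from 39 to 190 counts a library. Ifit1bl2 was at 1.45, 0.767, 1.80 and 1.03 CPM in the controls and at 4.62, 2.57, 4.07 and 1.23 with IgG, from 17 to 100 counts a library. Both stood above the level of 3 counts, which was 0.124 to 0.147 CPM at this depth. In pair 2 Ifit1bl1 was nearly level, whereas Ifit1bl2 had its largest change there.

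**Figure D3:**
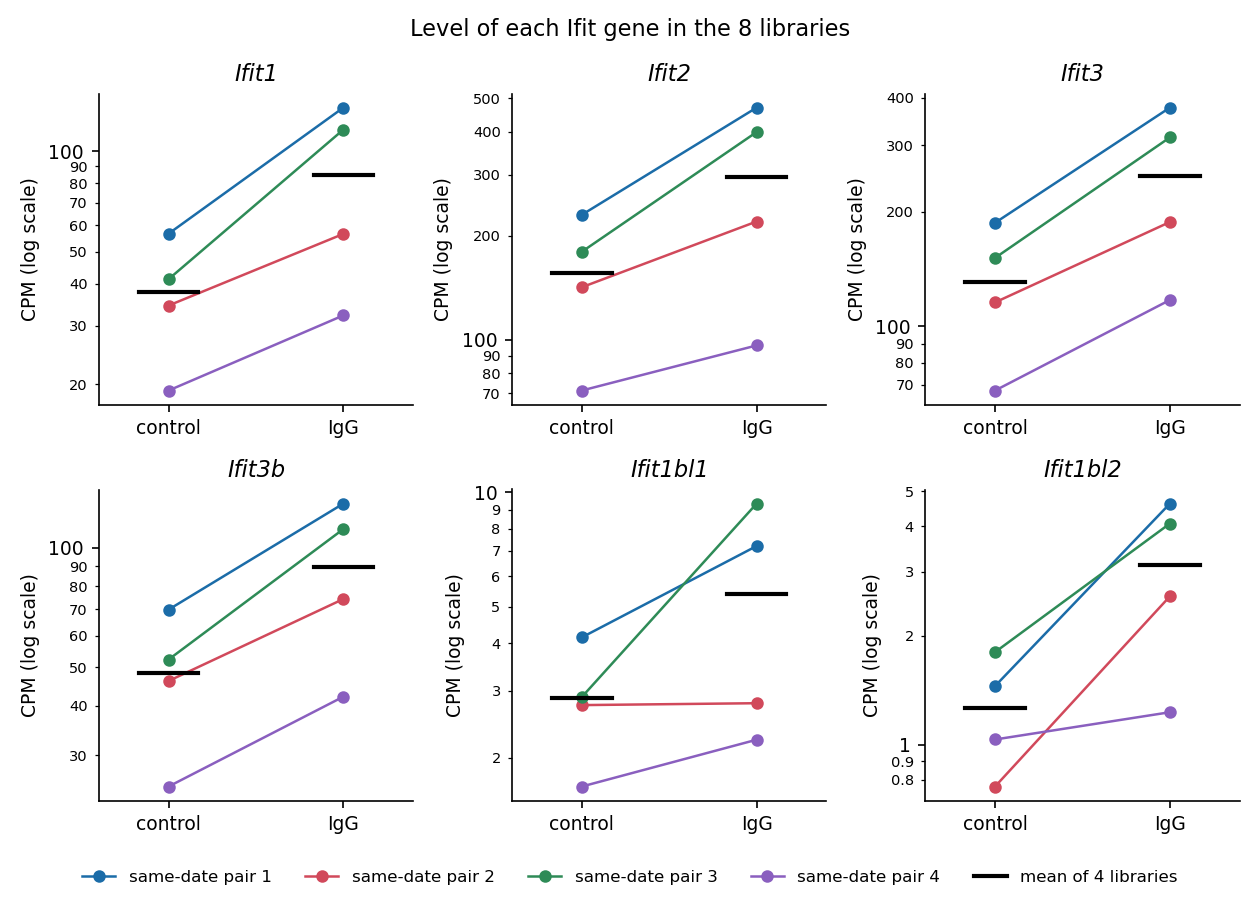
Each panel shows 1 Ifit gene in CPM on a log scale, with a line from the control to the IgG library of each pair and a black bar at the mean of the 4 libraries. All 24 lines go up, pair 1 or pair 3 lies highest in each IgG group, and the IgG library of pair 4 lies among the controls.

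The cultures differed from each other in Ifit level before any IgG. The summed level of the 6 genes was 549, 342, 429 and 186 CPM in controls 1 to 4. The SD of log2 CPM over the 4 controls was 0.50 to 0.73 for the members, against a median of 0.13 over all 17537 genes tested, and 6.53% of those genes had an SD at least as large as that of the least variable member. With IgG the sum was 1123, 544, 955 and 291 CPM, which is 2.04, 1.59, 2.22 and 1.57 times the control of the same pair. The IgG culture of pair 4 therefore held less Ifit RNA than the untreated cultures of pairs 1, 2 and 3. In RNA from whole cultures, more cells that express a gene and more RNA per cell cannot be told apart.

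The question of the comparison was how IgG changes the transcriptome of microglia. IgG cultures had 2.24 times the Ifit1 level of controls, and the other members were 1.85 to 2.45 times higher in the fit with the group as the only term. All 6 members were higher in all 4 pairs, which held for 10.4% of the genes. With p-values from edgeR's quasi-likelihood F-test, adjusted by Benjamini-Hochberg over all genes, 0 members and 0% of the genes (0 of 17537) were higher at an adjusted p under 0.05. At an unadjusted p under 0.05, 4 of the 6 members (Ifit1, Ifit3, Ifit3b and Ifit1bl2) and 4.83% of the genes were higher. DESeq2 and the likelihood ratio test without the pairing called 53 and 43 genes in either direction, none of them a member, and limma-voom called 0 genes. Of these, 45 (0.257% of the genes) were higher in DESeq2 and 40 (0.228%) in the likelihood ratio test.

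The pairing changed this result. When the same edgeR test took the replicate number as a blocking term, 3 of the 6 members (Ifit1, Ifit3 and Ifit3b) and 0.393% of the genes (69 of 17537) rose at an adjusted p under 0.05. With a looser criterion in the same fit, an unadjusted p under 0.01 and a log2 fold change above 0.5, all members but Ifit1bl1 were counted (5 of 6), against 1.48% of the genes. The block removes the differences between cultures that are common to both libraries of a pair.

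Ifit1 changed by a log2 fold change of 1.16 (SE 0.44, adjusted p = 0.692) without the block and 1.06 (SE 0.15, adjusted p = 0.0329) with it, in edgeR's test. Its changes within pairs 1 to 4 were 1.25, 0.71, 1.49 and 0.75. Ifit3 changed by 0.93 (SE 0.38, adjusted p = 0.692) without the block and 0.89 (SE 0.10, adjusted p = 0.0145) with it, and by 1.01, 0.70, 1.05 and 0.79 within the pairs. Its within-pair changes had the smallest spread of the family, with an SD of 0.17.

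Ifit3b changed by 0.88 (SE 0.36, adjusted p = 0.692) without the block and 0.86 (SE 0.10, adjusted p = 0.0154) with it in edgeR's test, and by 0.89, 0.69, 1.09 and 0.75 within the pairs. When the counts of Ifit3 and Ifit3b were added and tested as 1 gene, the change was 0.92 without the block and 0.88 with it (adjusted p = 0.0145). The change of both copies taken as 1 thus does not depend on how reads were split between them.

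Ifit2 fell just outside the threshold, at 0.93 (SE 0.47, adjusted p = 0.693) without the block and 0.81 (SE 0.13, adjusted p = 0.052) with it in edgeR's test. Its changes within pairs were 1.03, 0.63, 1.15 and 0.43, and without IgG replicate 1 its estimate without the block was 0.62. With all libraries, Ifit1bl2 had the largest estimate of the family, 1.30 (SE 0.41, adjusted p = 0.692) without the block and 1.24 (SE 0.27, adjusted p = 0.157) with it, and its within-pair changes ran from 0.23 to 1.63. This rank depended on the libraries. Without control replicate 1, in the fit without the block, Ifit1 was at 1.42 and Ifit1bl2 at 1.37. Without pair 2, in the fit with the block, they were at 1.17 and 1.10. Ifit1bl1 differed by 0.90 (SE 0.45, adjusted p = 0.693) without the block and 0.77 (SE 0.27, adjusted p = 0.408) with it, from 0.02 in pair 2 to 1.66 in pair 3. Without IgG replicate 3 its estimate without the block was 0.51, and without pair 3 its estimate with the block was 0.43.

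**Figure D4:**
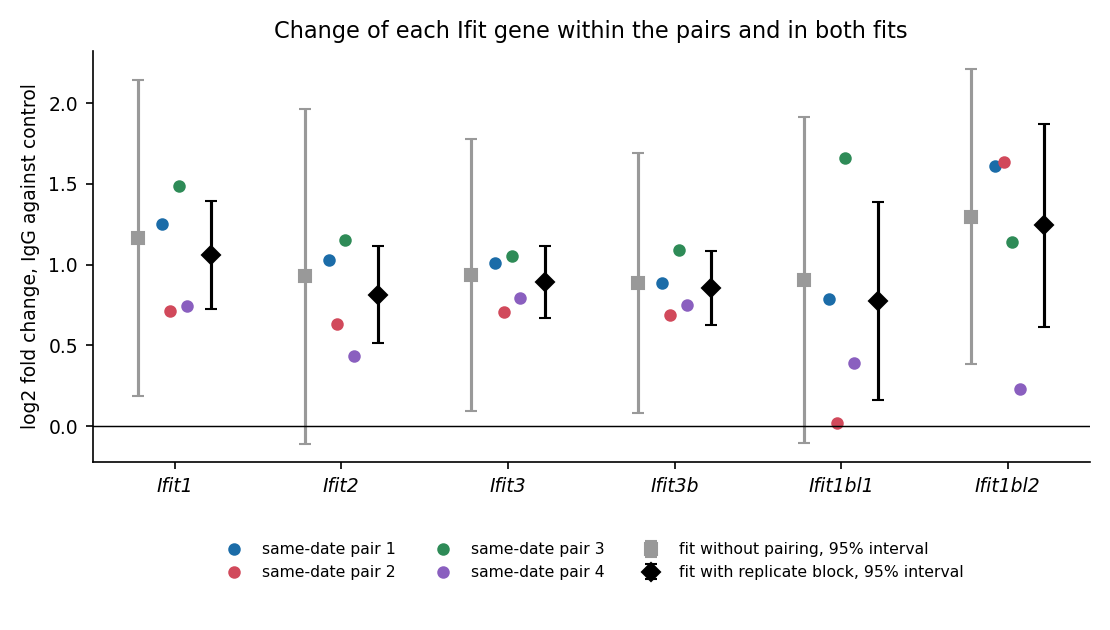
For each Ifit gene the coloured points are the log2 fold changes, IgG against control, within pairs 1 to 4, the grey square is the estimate without the pairing and the black diamond the estimate with the replicate block, both with 95% intervals. The intervals without the pairing span 0 for Ifit2 and Ifit1bl1, and those with the block lie above 0 for all 6 genes before any adjustment over genes.

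The calls rested on which pairs were included. With the block, 0 of the 6 members passed the adjusted threshold when pair 1, pair 2 or pair 3 was left out, and 5 passed (all but Ifit1bl1) when pair 4 was left out, while all 6 estimates stayed above 0 in each case. Over all genes, 14, 0 and 16 were called higher in the first 3 of these fits and 171 of 17554 (0.974%) in the last. The mitochondrial share of counts was 4.85% in IgG library 1 and 5.59% in IgG library 3, against 1.97% to 2.41% in the other 6 libraries. Pairs 1 and 3 also had the largest changes of Ifit1, Ifit2, Ifit3, Ifit3b and Ifit1bl1, but not of Ifit1bl2. In pairs 2 and 4 alone, the blocked estimates were 0.73 for Ifit1, 0.53 for Ifit2, 0.75 for Ifit3, 0.72 for Ifit3b, 0.20 for Ifit1bl1 and 1.02 for Ifit1bl2. The first 4 of these had adjusted p-values of 9.8e-05, 0.0222, 6.01e-05 and 0.000132 in edgeR's test, in a fit with 2 libraries a group, where the spread of a gene is estimated largely from the other genes and 154 of 17757 genes (0.867%) were called higher. The estimates of Ifit2 and Ifit1bl1 were over 1.5 times smaller there than with all pairs. With trends on GC content and exon length removed, the blocked estimates were 1.00 for Ifit1, 0.74 for Ifit2, 0.89 for Ifit3 and 0.83 for Ifit3b, and these 4 passed, as did 190 of 17537 genes in the same direction.

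Ifit2 held 40.9% ± 1.71 of the family's counts in controls and 39.3% ± 4.21 with IgG (SD, n = 4), Ifit3 held 34.9% ± 1.18 and 35.3% ± 3.34, and Ifit3b held 12.97% ± 0.642 and 12.8% ± 1.46. Ifit1 held 10.1% ± 0.321 in controls and 11.4% ± 0.840 with IgG. Its share was higher with IgG in all 4 pairs, and by counts the groups did not overlap (9.62% to 10.3% against 10.4% to 12.1%), whereas on the scale per exon length they met (8.84% to 9.49% against 9.48% to 11.3%). The share of Ifit2 by counts was lower with IgG in all 4 pairs, but per exon length it was higher in 2 of them. With IgG library 4 left out and its control kept, which breaks the pair, the difference in mean share, IgG minus control, went from -1.62 to 0.46 percentage points for Ifit2 and from 0.44 to -1.20 for Ifit3. Within each pair the log2 change of Ifit1 exceeded that of Ifit2, by 0.08 to 0.34. These shares and differences are descriptions and were not tested.

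Upstream of the family, the ligands were at or near 0. Of 18 IFN-I genes, 16 had no count in any library, including all Ifna genes. A count of 0 allows up to 3 counts, or 0.124 to 0.147 CPM, for counting error only. Ifnb1, which encodes interferon β, had 4 counts over all 8 libraries and at most 3 in any of them, and Ifnz had 11. A change of the ligand RNA was not detectable at this depth.

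Among 7 genes of the receptor, its kinases and ISGF3, 0 passed in edgeR's test with the block (0.393% of all genes). In all 4 pairs, 4 of them were higher (10.4% of all genes). The median blocked log2 fold change was 0.16, against -0.0051 over all genes in that fit. Without the block, 1 of the 7 was higher at an unadjusted p under 0.05 (4.83% of all genes).

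Of 6 interferon regulatory factors that read ISRE sites, 1 passed with the block, against 0.393% of all genes. This was Irf7, the factor that amplifies IFN-I production. It went from 123 ± 54.6 to 264 ± 108 CPM (SD, n = 4), a blocked log2 fold change of 1.13 (SE 0.09, adjusted p = 0.00593, edgeR), and the within-pair changes were 1.06, 1.05, 1.11 and 1.30. The median of the 6 factors was -0.02. Of 6 genes that restrain IFN-I signalling, 1 passed with the block, against 0.393% of all genes. In all 4 pairs, 3 of the 6 were higher (10.4% of all genes) and 1 was lower. The gene that passed was Usp18, which displaces Jak1 from the receptor, at 0.68 (SE 0.10, adjusted p = 0.035, edgeR), and the list's median was 0.22.

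Of 7 RNA sensors, 2 passed with the block in edgeR's test (0.393% of all genes) and 5 were higher in all 4 pairs (10.4% of all genes). Zbp1, which senses Z-form nucleic acid, rose by 1.02 (SE 0.09, adjusted p = 0.009), and Dhx58, a helicase related to RIG-I, rose by 0.60 (SE 0.09, adjusted p = 0.0381). Of 18 other antiviral effectors of the interferon response, 4 passed and 16 were higher in all 4 pairs, against the same 0.393% and 10.4% of all genes. The 4 were Oasl1 (1.35, adjusted p = 0.0145), Ifi44 (1.22, adjusted p = 0.00593), Oas3 (1.15, adjusted p = 0.00912), which makes the 2′-5′ oligoadenylate that activates RNase L, and Oasl2 (0.75, adjusted p = 0.0145). The blocked medians were 0.60 for the sensors and 0.60 for the effectors, and the Ifit estimates lay between 0.77 and 1.24 on the same scale. These lists were chosen with earlier results of these libraries known and are no independent support.

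The mRNA cap and the initiation of translation are what Ifit proteins act on. Of 5 genes for the making and methylation of mRNA caps, of which Cmtr1 and Cmtr2 make the 2′-O mark whose absence Ifit1 senses, 0 passed with the block or at an unadjusted p under 0.05 without it. The most abundant, Cmtr1, which methylates the first nucleotide of the cap, differed by 0.19 with the block (adjusted p = 0.487, edgeR). Of 14 genes for subunits of eIF3, the initiation factor that Ifit1 and Ifit2 are known to bind, 0 passed with the block, 6 were higher at an unadjusted p under 0.05 without it (4.83% of all genes), and the blocked median was 0.19. The largest of these was Eif3j2, at 0.38 (adjusted p = 0.368 with the block, edgeR). Its changes within pairs 1 to 4 were 0.53, -0.01, 0.53 and 0.44. Those of Eif3c were 0.62, 0.02, 0.63 and 0.02.

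Of 6 genes that flank the cluster, 5 could be tested and 0 passed. Ch25h, which encodes cholesterol 25-hydroxylase, differed by 0.39 without the block (unadjusted p = 0.00935 in edgeR's fit) and 0.40 with it (adjusted p = 0.245). Lipa, the nearest gene before Ifit2 and abundant in microglia, was at 1058 ± 30.0 CPM in controls and 1073 ± 189 with IgG (SD, n = 4).

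**Figure D5:**
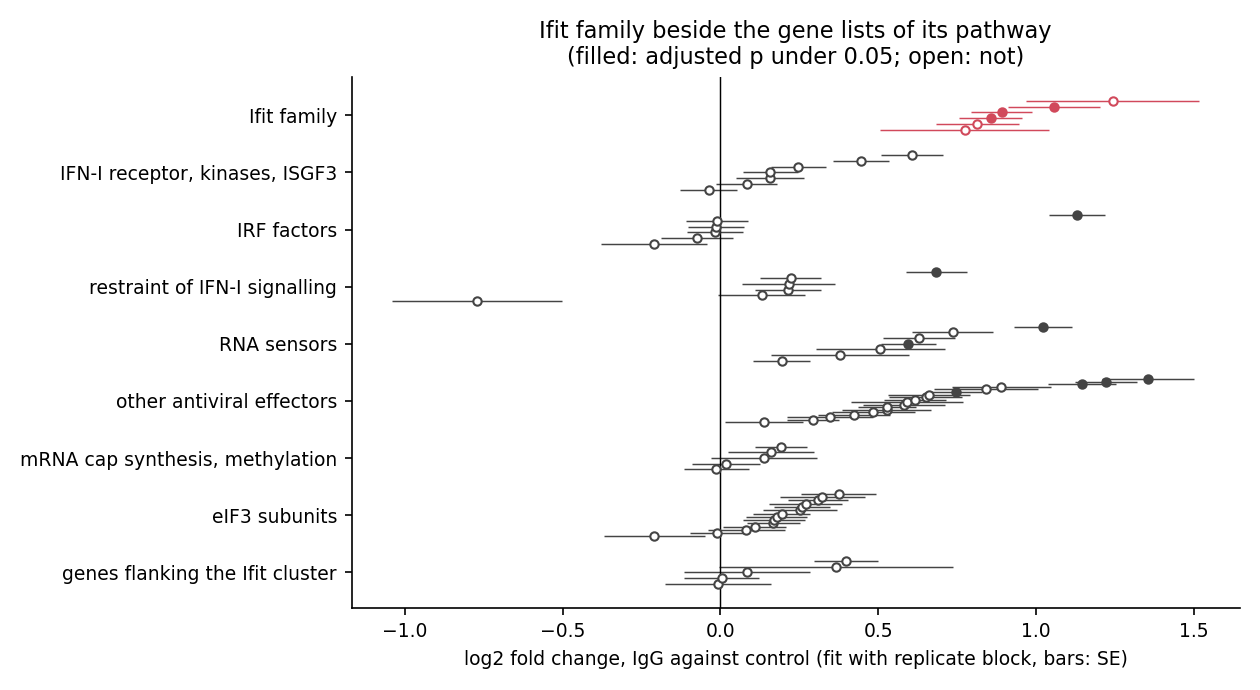
Each point is 1 tested gene with its log2 fold change, IgG against control, from the fit with the replicate block (bar: SE), grouped by list, with filled points for an adjusted p under 0.05. The Ifit genes (red) all lie at or above 0.77, the sensors and other effectors lie between 0.14 and 1.35, and the mRNA cap, eIF3 and flanking genes lie between -0.21 and 0.40.

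Phf11b, Irgm1 and Tor3a were among the 5 genes outside the family whose log2 CPM over the 8 libraries was most like the mean of the members. Pearson's r was 0.997 for each of these 3 over the 8 libraries, which come from 4 dates, and 735 of 17531 genes (4.19%) had an r above 0.9. After the group means were removed, r was at least 0.995 for each of the 3, so the likeness also covers the differences between cultures. These genes were chosen by r over the same 8 libraries, so this is a description and no independent support. Phf11b had a blocked log2 fold change of 0.88 (adjusted p = 0.0331, edgeR) and Irgm1, an interferon-inducible GTPase, one of 0.65 (adjusted p = 0.0444), whereas Tor3a differed by 0.31 (adjusted p = 0.302).

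The libraries held 21287816 to 23703216 counts. The microglial label was checked against 10 marker genes, all of which were expressed, with a summed level of 6202 to 7090 CPM in controls and 7141 to 7862 CPM with IgG. Oligodendrocyte lineage markers, led by Mbp, summed to 1121 to 1711 and 963 to 1608 CPM, astrocyte markers to 111 to 124 and 106 to 119 CPM, and neuronal markers to 39.5 to 61.6 and 35.0 to 50.5 CPM. All members of these 3 lists were tested, and 0 had an adjusted p under 0.05 with the block or an unadjusted p under 0.05 without it in edgeR's fits. Their median blocked log2 fold changes were -0.15, -0.10 and -0.20. Olig2 (-0.50, unadjusted p = 0.00376 in edgeR's blocked fit) and Tubb3 (-0.28, unadjusted p = 0.0469), named after their values were seen, were lower in all 4 pairs. Border-associated macrophage markers summed to 57.4 to 82.5 CPM in controls and 52.3 to 108 CPM with IgG, fibroblast markers to 3.52 to 7.01 and 4.85 to 6.43 CPM, and endothelial markers, nearly all of it Flt1 with Cldn5 at 0, to 121 to 161 and 119 to 128 CPM. Sums led by 1 gene do not show the rare markers: Cdh5 (0.98, unadjusted p = 0.00329) and Cbr2 (1.23, unadjusted p = 0.00325), also named after their values were seen, were higher in all 4 pairs in edgeR's blocked fit, with control means of 0.892 and 0.592 CPM and adjusted p-values of 0.221 and 0.22. Pecam1 differed by 1.03 (adjusted p = 0.499, edgeR). In the same lists, F13a1 differed by -0.31 and was lower in all 4 pairs, and Flt1 differed by -0.18 and was lower in 3 of 4. Of 8 markers of other leukocytes, 5 had no count in any library, among them Ly6g, S100a9, Cd3e and Ncr1. Ccr2, named after its values were seen, went from 1.14 to 0.661 CPM and was lower in all 4 pairs (-0.76, unadjusted p = 0.0379 in edgeR's blocked fit, adjusted p = 0.472), and S100a8, the other marker of this list that could be tested, differed by 0.34 and was higher in 3 of 4 pairs. The microglial sum was higher in every IgG library than in every control. The part of cell make-up and of the mitochondrial share in the Ifit change was not tested.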

How the data were processed

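The authors removed adapters and low-quality reads, aligned the rest to GRCm38 (HISAT2 2.2.1; SAMtools 1.12, Picard 2.26.3, featureCounts, edgeR 3.36.0 and R 4.1.2 are also named in the submitters' processing notes) and deposited raw counts for each Ensembl gene, without normalization. The annotation, the use of strand and the treatment of reads with several alignments are not given in the sources used here. Of the 55385 identifiers, 55144 were found in GENCODE M21, which gave symbols, positions and exon lengths. Promoter windows came from RefSeq (GRCm38.p6), and all 6 members had at least 1.

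Counts were scaled with TMM, filtered with filterByExpr (17537 genes, all 6 members among them) and compared by a quasi-likelihood F-test (edgeR 4.0.16, R 4.3.3) in which group was the single term, with Benjamini-Hochberg adjustment over all genes tested and a threshold of 0.05. Log2 CPM used a prior count of 2. P-values of this fit set the group difference against the spread between these cultures. Those of the fit with the replicate block set it against the spread left after differences common to a pair are removed. The replicate numbers pair the libraries, because the labels give same-numbered libraries the same date. Over 15669 genes, the deviations of both libraries of pairs 1 to 4 from their group means had correlations of 0.41, 0.33, 0.26 and 0.32, and libraries of unequal number had -0.34 to 0.20; genes are not independent replicates. No libraries of a group were duplicates, since chi-square divided by its degrees of freedom was at least 5.00, where sampling noise alone gives about 1.

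Named genes were all members, up to 4 genes a list (largest change among those past the threshold with the block, else at an unadjusted p under 0.05 without it, else the most abundant), the IFN-I ligands and the 5 genes most like the family; some of these genes are not reported here. The members and lists were chosen with earlier results of these data known. Alternatives were the replicate block, removal of GC and length trends (lowess, span 0.3), other scalings and filters, DESeq2 1.42.0, the likelihood ratio test, limma-voom (limma 3.58.1) and omission of each library or pair. The fit without pairs 1 and 3 was added after seeing the data. The edgeR test was also run on simulated counts, with culture effects independent between genes and smaller than those seen in the Ifit genes. That simulation does not bear on the calls of single members.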

Additional observations from a re-analysis of the deposited data

How the results depend on the processing

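All 6 members had a log2 fold change above 0 in every alternative that gives one. Without the pairing no setting called a member. Leaving out 1 library at a time without the block gave 0.85 to 1.44 for Ifit1, 0.62 to 1.22 for Ifit2, 0.66 to 1.17 for Ifit3, 0.65 to 1.1197 for Ifit3b, 0.51 to 1.16 for Ifit1bl1 and 1.04 to 1.56 for Ifit1bl2. With the replicate block the estimates for Ifit1, Ifit3 and Ifit3b were 1.06, 0.89 and 0.86 and became called; leaving out 1 pair of the block at a time, the called estimates, all without replicate 4, were 1.14 for Ifit1, 0.92 for Ifit2, 0.91 for Ifit3, 0.87 for Ifit3b and 1.49 for Ifit1bl2. In the other fits with the block, the called values of Ifit1, Ifit2, Ifit3 and Ifit3b were 0.73, 0.53, 0.75 and 0.72 without replicates 1 and 3; 1.00, 0.74, 0.89 and 0.83 with GC and length trends removed; 1.05, 0.81, 0.88 and 0.85 in DESeq2; 1.06, 0.81, 0.89 and 0.86 in the likelihood ratio test; and 1.07, 0.82, 0.89 and 0.86 in limma-voom. Ifit1bl2 was also called at 1.23 in DESeq2 and 1.24 in the likelihood ratio test, and Ifit3 and Ifit3b added were called at 0.88. Against 0 genes called over the whole table, the block gave 69, or 0 to 182 leaving out 1 pair at a time (14 without replicate 1, 0 without replicate 2, 16 without replicate 3), 190 without replicates 1 and 3 and 198 with the trends removed; leaving out 1 library without the block gave 0 to 6, and keeping genes with at least 1 count gave 4. DESeq2 called 53 genes and 233 with the block, the likelihood ratio test 43 and 327, and limma-voom 0 and 88. The unadjusted criterion (p under 0.01, log2 fold change beyond 0.5) counted 148 genes, 320 with the block (215 to 762 leaving out 1 pair, with 326 without replicate 2), 327 without replicates 1 and 3, 334 with the trends removed and 284 with genes of at least 1 count. It counted 350 in DESeq2 with the block, 255 in the likelihood ratio test and 528 with its block, 337 in limma-voom with the block, and 87 to 610 leaving out 1 library. The cause of these differences was not tested. Counts of Ifit1bl1 and Ifit1bl2 limit what can be seen of them.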

Other observations

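Among the 10 microglial markers, 2 rose with the block, against 0.393% of all genes (edgeR's quasi-likelihood F-test, Benjamini-Hochberg, adjusted p under 0.05). The list's median blocked log2 fold change was 0.32, and 5 of the 10 were higher in all 4 pairs (10.4% of all genes). Without the block, 4 were higher at an unadjusted p under 0.05 (4.83% of all genes). Fcrls, an Fc receptor-like gene of microglia, went from 196 ± 45.7 to 349 ± 88.3 CPM (SD, n = 4), a log2 fold change of 0.83 (adjusted p = 0.0329), and Aif1, which encodes Iba1, went from 78.4 ± 17.4 to 125 ± 14.4 CPM, a change of 0.69 (adjusted p = 0.0331). Each was higher in 4 of 4 pairs. Socs1, a feedback inhibitor of cytokine signalling, was chosen after its values were seen: it went from 2.46 ± 0.404 to 1.45 ± 0.369 CPM and was lower in 4 of 4 pairs, with a log2 fold change of -0.77 and an adjusted p of 0.413 with the block.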
